A study of Mus musculus with 9 samples.

Results

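Small nucleolar RNAs (snoRNAs) were examined in the trigeminal ganglion (TG) of mice with inflammation of the temporomandibular joint (TMJ). They were taken as the rows of the other noncoding RNA table whose gene name begins with Snord (box C/D class) or Snora (box H/ACA class) and whose level was above 0 in at least 5 of the 9 libraries. Of 24718 rows in that table, 141 carried such a name and 125 met the rule. These were 84 C/D and 41 H/ACA transcripts of 122 genes, and 118 of the 125 were above 0 in all 9 libraries. They were thus chosen by detection, a measured value. The row just inside the limit was Snord116l11, above 0 in 5 libraries at a mean of 0.0207 FPKM, and 3 rows just outside it were above 0 in 4 libraries, led by Snord116l14 at 0.0804 and Snord116l2 at 0.0194 FPKM. FPKM counts fragments per kilobase of transcript relative to the depth of the library, so it scales a level by transcript length.

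All mice were male wild-type C57BL/6 animals of 8 weeks that received an injection into the TMJ. Saline animals formed 3 libraries labelled day 3, CFA animals (complete Freund's adjuvant, an inflammatory emulsion) formed 3 libraries on day 3 (CFA3D, replicates 1 to 3) and 3 on day 6 (CFA6D, replicates 4 to 6), and each library pooled the ganglia of 3 mice. With no saline library of day 6, time after injection and CFA cannot be told apart in the comparison of CFA6D with saline. The p-values measure the spread between pools, not between mice.

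A snoRNA is a short nuclear RNA that guides a protein particle to a site on ribosomal RNA (rRNA) or another small RNA. C/D snoRNAs carry fibrillarin, which methylates the ribose of the target base, and H/ACA snoRNAs carry dyskerin, which turns uridine into pseudouridine. A few members of either class are needed for cutting the rRNA precursor. Most vertebrate snoRNAs are trimmed out of introns of host genes, many of which encode ribosomal proteins, while a few are made from promoters of their own.

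The sequences on which the results turned are given 5′ to 3′ from the GENCODE release 21 transcripts (GRCm38). Snord118 (chr11:69073427-69073561, + strand) and Snord70 (chr1:59691934-59692020, + strand) were C/D members called on CFA6D, with the letters of box C (TGATGA) and box D (CTGA) in capitals where they occur. Snora23 (chr7:110046364-110046547, + strand) is a high H/ACA member, and capitals mark the last ACA of its sequence. That ACA overlaps an earlier ACA, and which of them is the box was not tested.
Snord118: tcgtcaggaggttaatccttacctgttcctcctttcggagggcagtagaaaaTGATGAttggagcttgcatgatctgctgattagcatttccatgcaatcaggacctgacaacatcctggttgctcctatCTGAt
Snord70: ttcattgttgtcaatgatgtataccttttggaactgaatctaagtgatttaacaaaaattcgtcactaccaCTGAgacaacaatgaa
Snora23: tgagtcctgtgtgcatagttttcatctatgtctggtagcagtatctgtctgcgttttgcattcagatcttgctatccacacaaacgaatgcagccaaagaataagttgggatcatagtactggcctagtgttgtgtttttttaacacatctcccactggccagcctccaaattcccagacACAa

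Several members are near-identical copies, between which reads could be split, and the bases that differ within a pair are in capitals. Snora73a (chr4:132352775-132352979, - strand) and Snora73b (chr4:132352322-132352526, - strand) were 96.6% identical, Snord50a (chr9:88521529-88521600, - strand) and Snord50b (chr9:88521797-88521868, - strand) 98.6%, and Snord88a (chr7:44250135-44250224, + strand) and Snord88c (chr7:44249852-44249941, + strand) 94.4%.
Snora73a: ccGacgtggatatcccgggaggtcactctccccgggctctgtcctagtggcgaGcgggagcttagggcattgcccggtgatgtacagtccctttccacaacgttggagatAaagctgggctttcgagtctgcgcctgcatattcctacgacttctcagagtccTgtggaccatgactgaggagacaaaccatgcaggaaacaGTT
Snora73b: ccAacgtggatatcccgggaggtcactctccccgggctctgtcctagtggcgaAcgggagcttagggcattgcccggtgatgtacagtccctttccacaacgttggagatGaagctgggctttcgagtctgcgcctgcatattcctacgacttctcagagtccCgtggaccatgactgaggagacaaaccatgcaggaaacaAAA
Snord50a: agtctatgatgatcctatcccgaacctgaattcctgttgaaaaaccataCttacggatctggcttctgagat
Snord50b: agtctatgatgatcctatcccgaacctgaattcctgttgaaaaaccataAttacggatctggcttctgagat
Snord88a: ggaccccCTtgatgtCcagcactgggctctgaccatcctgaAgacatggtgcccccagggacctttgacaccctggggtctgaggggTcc
Snord88c: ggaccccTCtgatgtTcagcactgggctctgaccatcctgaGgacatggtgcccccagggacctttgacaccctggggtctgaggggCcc

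Counted from 1 at the 5′ end of the first-named copy, Snord50a and Snord50b differed by the single substitution C50A. Snora73a and Snora73b differed at 7 positions, of which G203A, T204A and T205A are the last 3 bases. Snord88a and Snord88c differed at 5 positions, and C8T and T9C lie just before the tgatgt that both carry in place of a full box C.

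The 2 classes were set beside the letters of their boxes, searched on the transcript strand only. TGATGA in the first 20 bases together with CTGA in the last 12 was present in 51 of 84 C/D members (60.7%), in 0 of 41 H/ACA members and in 0.0527% of 5691 other transcripts of 60 to 250 nt in the table. ACA in the last 8 bases together with the hinge motif ANANNA in the interior (40 bases at the 5′ end and 20 at the 3′ end left out) was present in 37 of 41 H/ACA members (90.2%), in 3 of 84 C/D members and in 5.46% of the other transcripts. The letters went with the class names in most members. Class names can rest on these same boxes, so the match is a description and no independent check. Snord118 holds its TGATGA beyond the first 20 bases and Snord70 lacks the full motif.

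H/ACA members stood higher than C/D members in these libraries, and a handful of RNAs carried most of the signal. The highest was Snora73b, an H/ACA snoRNA (known as U17 or E1) that acts in cutting the rRNA precursor, with 278, 208 and 252 FPKM in the saline libraries, 305, 220.0 and 372 on CFA3D, and 261, 298 and 131 on CFA6D. Snord17, a long C/D snoRNA, held 117, 103 and 85.1 FPKM with saline, 104, 127 and 121 on CFA3D, and 80.6, 97.7 and 84.0 on CFA6D. Snora23 held 109, 63.0 and 58.9 FPKM, then 59.7, 81.1 and 91.9, then 46.8, 62.3 and 51.4 in the same order. The groups overlapped for Snora73b and for Snora23, and for Snord17 the CFA6D libraries lay below the CFA3D libraries. These 3 members together made up 53.3% of the summed mean FPKM of the 125.

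Next in order of mean FPKM came Snora74a (44.3), Snord22 (35.9), Snora73a (34.2), Snord15b (25.6), Snora7a (17.9), Snora21 (16.1), Snora68 (11.6) and Snord104 (10.9). Snord22 (U22) is needed for processing of the small-subunit rRNA, and it sits in Snhg1, a noncoding host gene. Its libraries ranged from 25.5 to 51.6 FPKM with saline, from 25.1 to 46.2 on CFA3D and from 30.7 to 39.0 on CFA6D, which overlap throughout. Below Snord104 the C/D members fell off to Snord13 (6.53), Snord49a (5.08), Snord15a (4.99), Snord55 (4.82), Snord49b (4.62) and Snord83b (4.31), whose values lie close together.

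**Figure D1:**
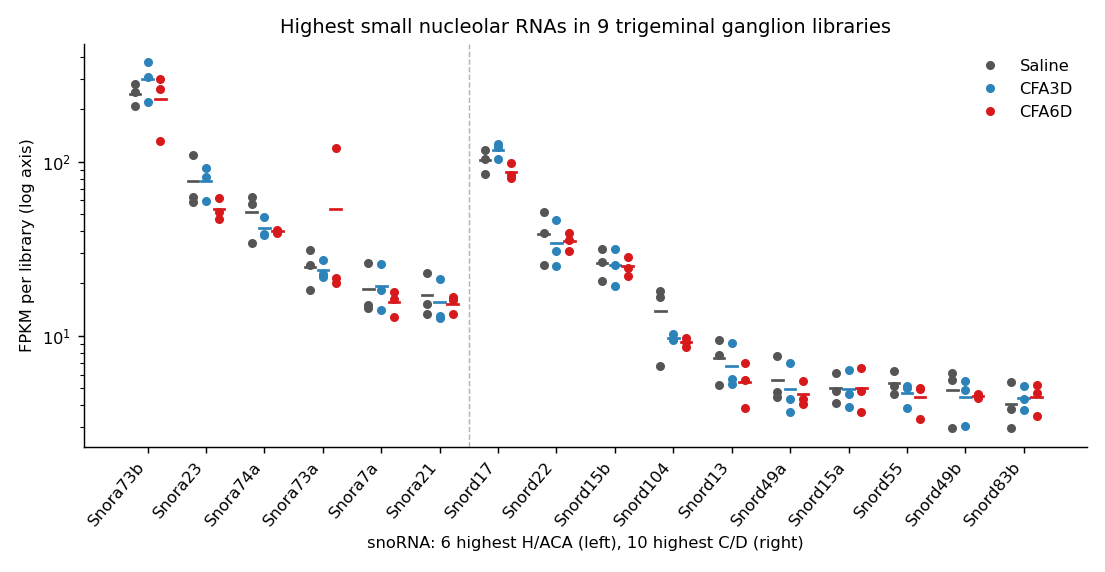
FPKM on a log axis of the 6 highest H/ACA and 10 highest C/D snoRNAs, with 1 point per library and a short line at each group mean (n = 3 pools). Groups overlap for nearly all members, and 1 CFA6D library stands apart for Snora73a at 119.7 FPKM and for Snora73b at 131 FPKM.

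The median member held 0.805 FPKM among C/D and 2.69 FPKM among H/ACA snoRNAs. The classes also differed in annotated length, with a median of 80.5 nt (64 to 238) for C/D and 133 nt (121 to 205) for H/ACA. Within the C/D class the 58 members of 60 to 89 nt had a median of 0.512 FPKM, and the 5 members of at least 120 nt had a median of 25.6 FPKM. Across the 125 members the Spearman correlation of mean FPKM with length was 0.371, which is a description over members that share libraries and library preparation. FPKM divides by length, and recovery of RNAs shorter than a sequenced fragment in this preparation was not tested, so levels of long and short snoRNAs are set side by side only as listed.

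C/D members summed to 293 ± 33.9 FPKM with saline, 289 ± 34.5 on CFA3D and 254 ± 11.7 on CFA6D (SD, n = 3). The CFA6D libraries (245 to 267) lay below the saline libraries (271 to 332) and overlapped those of CFA3D (249.8 to 314). In each library the 3 highest C/D members held 54.4% to 63.4% of the C/D sum, so these sums mostly follow a few RNAs. H/ACA members summed to 519.8 ± 65.0, 571 ± 109 and 492 ± 50.9 FPKM, and all groups overlapped. The ratio of the C/D to the H/ACA sum was 0.571 ± 0.104, 0.515 ± 0.0935 and 0.519 ± 0.0284 in the 3 groups, a difference smaller than the SD among saline libraries.

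Of the 125 members, 81 lay within a protein-coding gene on their own strand, 36 within a noncoding gene, and 8 within none. A ribosomal protein gene hosted 31. Snord17 lies in Snx5, Snora23 in Ipo7, both Snora73 copies in the noncoding Snhg3, Snora7a in Rpl32, Snora21 in Rpl23 and both Snord15 copies in Rps3. Over the members as listed, a high host did not go with a high snoRNA. Rpl32 transcripts summed to 201 FPKM and Snx5 transcripts to 12.4 FPKM, while Snora7a stood at 17.9 and Snord17 at 102 FPKM. An Rpl32 transcript has an exon over all 140 bases of Snora7a, so reads there cannot be assigned by position alone. The Spearman correlation of a member's mean FPKM with its host's summed FPKM was 0.103 over the 117 members with a host sum. These include 64 with an exon of a longer transcript over them, 25 of which had a mean under 0.1 FPKM. No correlation is given for members in introns only.

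Members with an exon of a longer annotated transcript over them included those that ranged most between libraries. Such an exon, of a transcript on the same strand, overlapped 64 members, 53 lay in introns only and 8 had no host. Reads in the shared bases cannot be assigned by position alone to the snoRNA or to the longer transcript. The highest library exceeded the lowest by more than 20 times in 16 of 39 tested members with an exon over them, against 0 of the 46 intronic members above 0 in every library and 0 of 8 without a host. The largest ratio was 1903 in the first set, 9.97 in the second and 4.09 in the third. Another 6 intronic members, with means of 0.126 to 0.419 FPKM, were listed at 0 in a library, so that their ratio has no upper bound. With 0.1 FPKM added to both values a ratio could be formed for all 99 tested members, and it exceeded 20 in 10 of 39 with an exon over them, 0 of 52 in introns and 0 of 8 without a host. The largest of these was 63.2, 12.1 and 3.91, and the median 4.37, 2.71 and 2.29. The median SD within groups on the log2 scale was 0.695 with an exon, 0.450 in introns and 0.336 without a host.

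Some of these RNAs were near 0 in some libraries and well above it in others of the same group. The 3 given here were chosen after their values were seen. Snord21, in Rpl5, held 0.0266, 7.67 and 0.0330 FPKM with saline, 0.0231, 0.0321 and 5.06 on CFA3D, and 6.62, 6.68 and 0.0289 on CFA6D. Snord14e, in Hspa8, held 1.89, 3.09 and 0.00162 FPKM, then 0.890, 2.37 and 0.260, then 0.00482, 0.00254 and 1.96. Both spanned the whole range within a single group, so that their group means say little. Snora65, in Rpl12, held 4.63 FPKM in CFA3D replicate 3 and between 0.00838 and 0.0824 in the other 8 libraries.

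**Figure D2:**
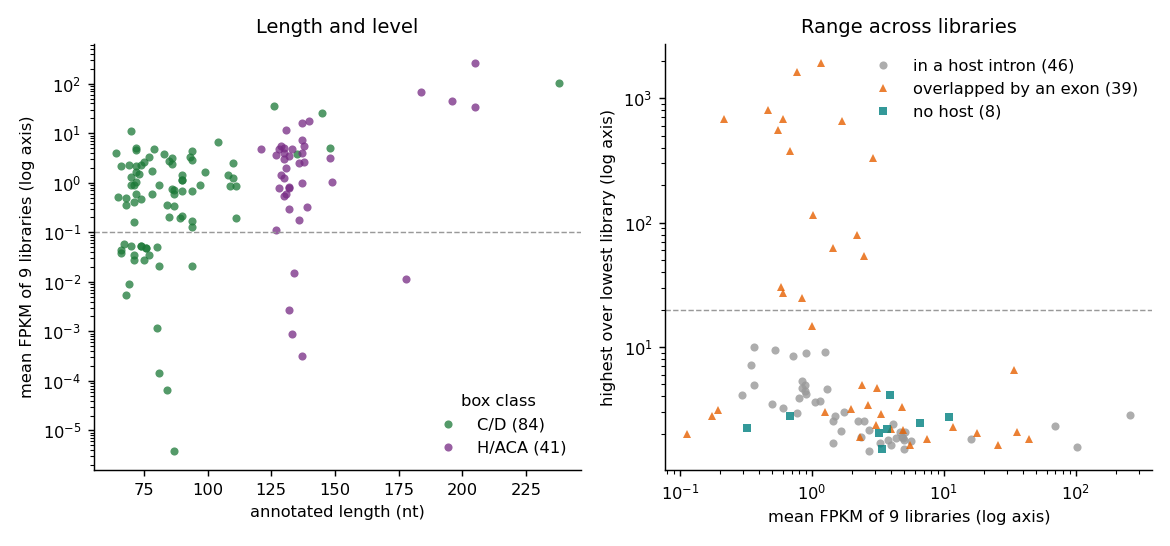
Left, annotated length against mean FPKM on a log axis for the 84 C/D and 41 H/ACA members, with a dashed line at the 0.1 FPKM needed for testing. Right, mean FPKM against the ratio of the highest to the lowest library for the 93 tested members above 0 in every library, by position relative to longer transcripts, with the 6 intronic members listed at 0 in a library not drawn. Of the 93 drawn, the 16 above the dashed line at 20 have an exon over them.

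The Snora73 copies showed the same feature at high level. Snora73a held 31.0, 25.5 and 18.4 FPKM with saline, 21.8, 22.6 and 27.1 on CFA3D, and 20.2, 21.4 and 119.7 on CFA6D. In the library with 119.7 FPKM, CFA6D replicate 6, Snora73b was at its lowest of the 9 libraries (131 FPKM). The sum of both copies in that library was 251 FPKM, inside the range of 234 to 399 FPKM of the other 8. A Snhg3 transcript of 581 nt has an exon over 159 of the 205 bases of Snora73a, and it was listed at 1.63 FPKM in CFA6D replicate 6 and at 38.6 to 74.6 FPKM in the others. All Snhg3 transcripts together held 4.67 FPKM in that library against 41.8 to 77.9 in the others. Thus 3 features that share sequence or position stood apart in 1 library while the sum of the copies did not. The same library held the highest level of neutrophil and marrow markers, whose summed FPKM over 6 genes was 2483 against 21.7 to 124.5 elsewhere, and the part of that in these values was not tested.

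**Figure D3:**
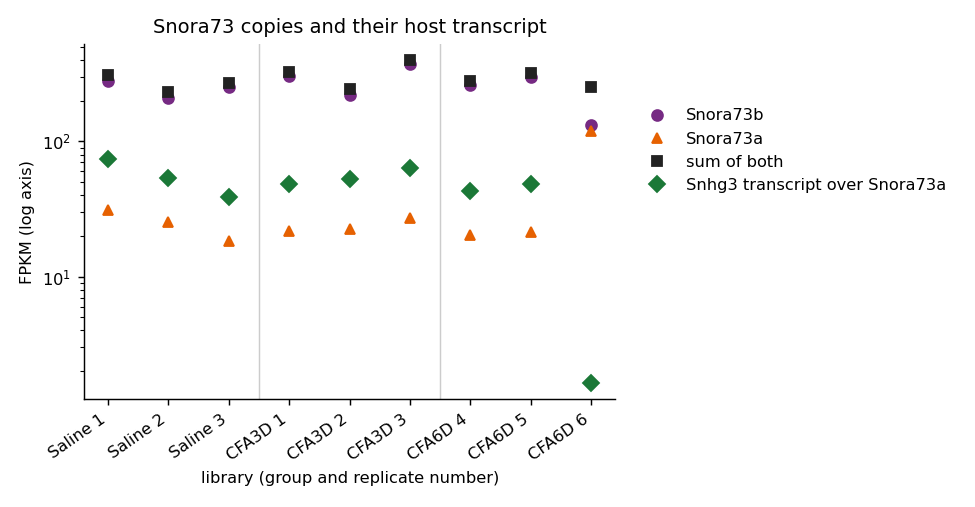
FPKM on a log axis of Snora73b, Snora73a, their sum and the Snhg3 transcript with an exon over Snora73a, in each of the 9 libraries. In CFA6D 6 Snora73a is high (119.7), Snora73b is low (131) and the Snhg3 transcript is at 1.63, while the sum of the copies is 251.

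For comparisons between groups, log2(FPKM + 0.1) was fitted with limma over the 7989 transcripts of the table with a mean of at least 0.1 FPKM, and a member was called where its unadjusted p was below 0.05 and its log2 fold change reached 1 in either direction. Of the 125 members 99 could be tested, 63 C/D and 36 H/ACA. The 26 left out had means under 0.1 FPKM, and 25 of them had an exon of a longer transcript over them. No member had an adjusted p under 0.05 in any comparison in limma, and the smallest values were 0.999 for CFA3D against saline, 0.548 for CFA6D against saline and 0.597 for CFA6D against CFA3D. At an unadjusted p under 0.05, 8, 9 and 8 members passed (8.08%, 9.09% and 8.08% of 99), beside 4.44%, 6.37% and 5.44% of all transcripts tested.

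With the fold minimum, 5 of 99 members were called on CFA3D against saline (2.27% of all transcripts tested were called), 5 of 99 on CFA6D against saline (2.84% of all) and 4 of 99 on CFA6D against CFA3D (2.52% of all). The groups did not overlap for 8, 7 and 11 of the 99 members, and for 8.67%, 11% and 12.3% of all transcripts. So the share with separated groups was at or below that of the table in each comparison. All calls but that of Snora2b were in the C/D class, which gave 63 of the 99 tested. The share called was 7.94%, 6.35% and 6.35% of C/D members and 0%, 2.78% and 0% of H/ACA members. The median SD within groups of tested members on the log2 scale was 0.571 for C/D and 0.405 for H/ACA. The 3 comparisons share libraries in pairs.

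The C/D and H/ACA classes were set side by side. On CFA3D against saline the median log2 fold change was -0.13 for C/D (24 of 63 above 0) and 0.07 for H/ACA (22 of 36 above 0), beside 0.02 over all transcripts tested. On CFA6D against saline the medians were -0.11 and -0.07, with -0.02 over all. On CFA6D against CFA3D they were -0.01 and -0.07, with -0.03 over all. The C/D members spread more widely. On CFA3D the quartiles of C/D fold changes ran from -0.44 to 0.22 and those of H/ACA from -0.09 to 0.30. In single libraries, the median log2 level of C/D minus that of H/ACA was between -1.21 and -0.95 with saline, between -1.64 and -1.28 on CFA3D and between -1.24 and -1.04 on CFA6D. On CFA3D all 3 libraries were thus below the 3 saline libraries, with a pooled SD within groups of 0.148. Of all single transcripts tested, 8.67% had groups that did not overlap in this comparison. The class difference is a description that was not tested, and its medians include members with an exon over them.

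**Figure D4:**
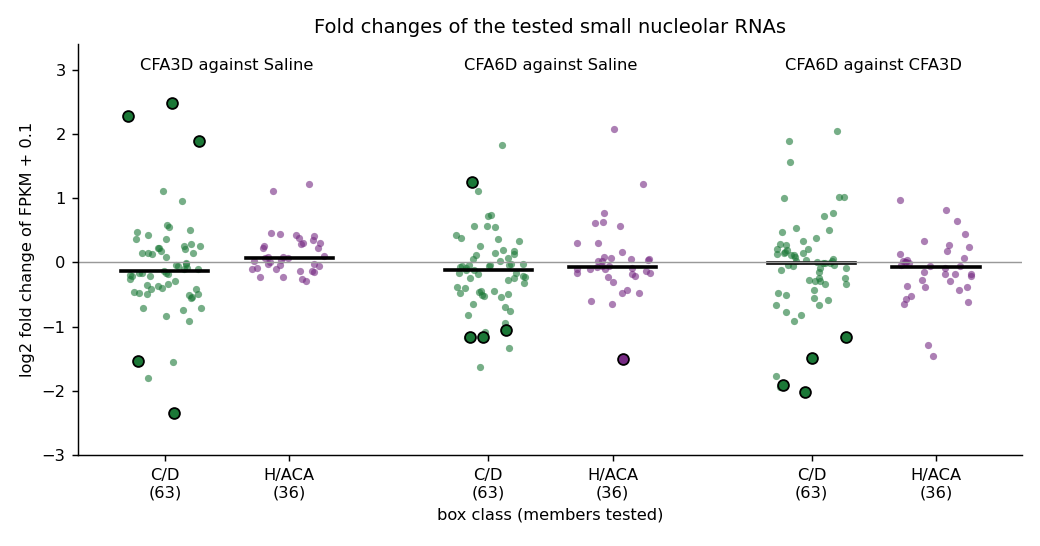
Log2 fold change of FPKM + 0.1 for each of the 63 C/D and 36 H/ACA members tested, in 3 comparisons; black lines are class medians, and larger outlined points are the calls (5, 5 and 4). Class medians lie between -0.13 and 0.07, and the called points are in the C/D class except for Snora2b on CFA6D.

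Snord118 was the called member with the most reads behind it. It is the U8 RNA, a C/D snoRNA needed for maturation of the large-subunit rRNA, and no longer transcript spanned it on its strand. It held 6.56, 3.41 and 4.57 FPKM with saline, 3.97, 4.67 and 5.45 on CFA3D, and 1.60, 2.20 and 2.39 on CFA6D. All 3 CFA6D libraries lay below all 6 others, and saline and CFA3D overlapped. The log2 fold change in limma was -1.16 ± 0.25 (SE) on CFA6D against saline (adjusted p = 0.548), -1.15 ± 0.25 on CFA6D against CFA3D (adjusted p = 0.597) and -0.01 ± 0.25 on CFA3D against saline. Read pairs were approximated from FPKM, length and the worth of 1 pair in each library, which gave 13.8 to 27.2 pairs in the saline and CFA3D libraries and 8.53 to 12.2 on CFA6D. Without CFA6D replicate 4 the fold changes were -0.997 against saline and -0.991 against CFA3D, and without saline replicate 1 the first was -0.92, all short of the fold minimum.

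Snord70, whose host Nop58 encodes a core protein of C/D particles, was called lower on both days. It held 0.739, 0.556 and 0.599 FPKM with saline, 0.157, 0.103 and 0.203 on CFA3D, and 0.129, 0.194 and 0.421 on CFA6D. The saline libraries were above every CFA library. The log2 fold change was -1.54 ± 0.349 on CFA3D (adjusted p = 0.999 in limma) and -1.15 ± 0.349 on CFA6D (adjusted p = 0.683). These levels equal about 1.45 to 2.09 read pairs per saline library and 0.355 to 1.39 per CFA library, and both comparisons use the same saline libraries. Without CFA6D replicate 4 the fold change on CFA6D was -0.89, short of the minimum. Its host Nop58 held 3.62 ± 0.619 FPKM with saline, 3.75 ± 0.321 on CFA3D and 3.16 ± 0.0425 on CFA6D.

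The other calls on CFA3D came from members with an exon over them. Snord60, a C/D snoRNA in Rab26os that guides a large-subunit site, held 0.0468, 0.280 and 0.244 FPKM with saline and 0.988, 1.43 and 0.486 on CFA3D (log2 fold change 1.89). Snord57, in Nop56 and a guide to the small subunit, held 1.51, 1.49 and 1.21 FPKM with saline and 0.0159, 0.0161 and 1.83 on CFA3D (-2.34). Its CFA3D libraries lie on both sides of the saline range. Snord88a, in 2410002F23Rik, held 0.015, 0.00553 and 0.00907 FPKM with saline and 0.459, 0.794 and 0.355 on CFA3D (2.47). Snord50b, in Snhg5 and a guide to the large subunit, held 0.0886, 0.0646 and 0.476 FPKM with saline and 0.985, 1.11 and 1.44 on CFA3D (2.27). All had adjusted p = 0.999 in limma, and their libraries held at most 4.74 approximate read pairs. The call of Snord57 was lost without any 1 of the 3 saline libraries or CFA3D replicate 1 or 2 (fold changes of -2.43 to -1.66), and that of Snord50b without saline replicate 1 or 2 (2.04 and 1.94).

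For Snord50b and Snord88a the near-identical copy bears on the reading. Snord50a was at 0.0382 FPKM in 1 CFA3D library and held 2.30 and 1.64 in the other two, beside 2.38 to 3.05 with saline. Added up, Snord50a and Snord50b gave 3.04 ± 0.550 FPKM with saline and 2.5 ± 1.29 on CFA3D, a log2 fold change of -0.42 where Snord50b alone had 2.27. Snord88a and Snord88c added up to 1.18 ± 0.514 and 1.92 ± 0.438 FPKM, a log2 fold change of 0.71. Neither sum was called.

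On CFA6D against saline the remaining calls were Snora2b, Snord90 and Snord14c. Snora2b and Snord14c have an exon of a longer transcript over them, of Kansl2 and of Hspa8. Snora2b, in Kansl2, held 1.78, 2.13 and 0.493 FPKM with saline and 0.145, 0.289 and 1.04 on CFA6D (-1.51, adjusted p = 0.743 in limma). Snord90, in Rc3h2, held 0.261, 0 and 0.0559 FPKM with saline and 0.373, 0.206 and 0.435 on CFA6D (1.26, adjusted p = 0.755). Snord14c, 1 of the Hspa8 copies of U14, a C/D snoRNA of rRNA processing, held 1.71, 5.58 and 3.08 FPKM with saline and 1.18, 1.13 and 2.22 on CFA6D (-1.06, adjusted p = 0.743). The groups overlap for all 3 of these. Each call was lost when 1 library was left out: Snora2b without saline replicate 1 or 2 or CFA6D replicate 4 or 5 (-1.36 to -1.03), Snord90 without saline replicate 2 or 3, CFA3D replicate 2 or CFA6D replicate 4 or 6 (0.84 to 1.26), and Snord14c without saline replicate 2 or 3 or CFA6D replicate 4 or 5 (-1.06 to -0.64). Snord14c added to Snord14d, from which it differs at 2 positions, gave a log2 fold change of -0.59.

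On CFA6D against CFA3D the calls beside Snord118 were Snord92, Snord88a and Snord50b, all lower on CFA6D. Snord92, in Wdr43, held 0.428, 0.176 and 0.523 FPKM on CFA3D and 0.0841, 0 and 0.127 on CFA6D (-1.48, adjusted p = 0.869 in limma). Snord88a held 0.00753, 0.291 and 0.00117 FPKM on CFA6D (-1.91, adjusted p = 0.736), and Snord50b held 0.0581, 1.18 and 0.0525 (-2.01, adjusted p = 0.869). Of these, the groups did not overlap for Snord92 and Snord88a. The call of Snord92 was lost without CFA3D replicate 1 or 3 or CFA6D replicate 5 (-1.36 to -1.14), and that of Snord50b without any 1 CFA3D library or CFA6D replicate 4 or 6 (-2.12 to -1.49). The sum of Snord50a and Snord50b had a log2 fold change of 0.30 between the days, opposite in sign to that of Snord50b, and the sum of Snord88a and Snord88c had -0.90, short of the fold minimum.

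**Figure D5:**
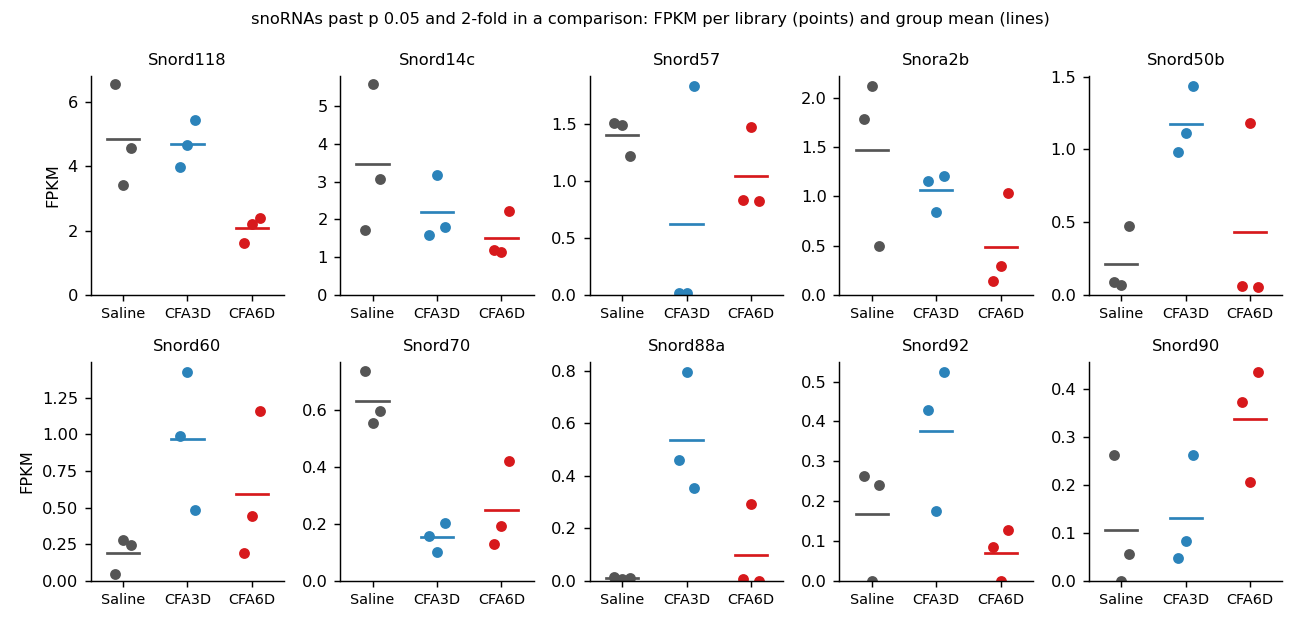
FPKM on linear axes that start at 0 for the 10 members called in at least 1 comparison, with 1 point per library and a line at each group mean (n = 3 pools), ordered by mean level. The 3 CFA6D points of Snord118 (1.60 to 2.39) lie below its other 6 (3.41 to 6.56), while Snord57 and Snord50b have single libraries far from the rest of their group.

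Among snoRNAs that act in cutting or folding the rRNA precursor, 8 of 9 listed members were tested. Snora73b, Snord22 and Snora73a were the highest of them. On CFA6D against saline Snord118 and Snord14c were called, beside 2.84% of all transcripts tested. Between the days Snord118 was called, beside 2.52% of all. The groups overlapped for Snord14c, and added to Snord14d it had a log2 fold change of -0.59, short of the fold minimum. Snord13 (U13), which directs acetylation of the small-subunit rRNA and has no host, held 7.47 ± 2.12, 6.67 ± 2.12 and 5.46 ± 1.58 FPKM in the 3 groups. Thus Snord118 stood at 2.07 ± 0.411 FPKM on CFA6D, while Snord13, also without a host, overlapped between all groups.

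The imprinted Snrpn locus gave 19 rows, of which 6 were members. Its Snord116 copies are brain-enriched C/D snoRNAs that lack a known rRNA target. Snord116l12 was the highest at 0.769 ± 0.107, 0.521 ± 0.157 and 0.763 ± 0.221 FPKM, and Snord116l9 (0.169 FPKM) and Snord116l10 (0.126 FPKM) followed. Snord116l10 and Snord116l11 are identical in sequence, so their reads cannot be divided, and the 4 Snord116 members added up to 1.24 ± 0.251, 0.793 ± 0.130 and 0.969 ± 0.265 FPKM. Of the 3 that could be tested (Snord116l12, Snord116l9 and Snord116l10) 0 were called, and Snhg14, which spans 3 of the members, summed to 20.8 FPKM.

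Members of 1 host differed widely in level. In Gas5, a noncoding host with 4 members, Snord80 held 3.35 FPKM, Snord78 0.0447 and Snord47 0.0355, and a longer annotated form of Snord80 was at 0.000143 FPKM. All 4 have an exon of a Gas5 transcript over them, so their reads cannot be assigned by position alone to the snoRNA or to Gas5. Snord78 and Snord47 held at most 0.130 and 0.157 approximate read pairs in a library. In Rpl13a, Snord32a (3.76), Snord35a (1.44) and Snord34 (1.31) lay in introns only, and Snord33, with an exon over it, was at 6.63e-05 FPKM. Of the 4 that could be tested (1 of 4 in Gas5 and 3 of 4 in Rpl13a) 0 were called. The summed FPKM of the hosts was 51.6 for Gas5 and 259.9 for Rpl13a.

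No gene for a protein of the particles was called. Of 24 genes for core and assembly proteins, 24 were tested as summed mRNA FPKM and 0 were called in each of the 3 comparisons in limma, beside 0.342%, 0.584% and 0.77% of all 16096 gene sums. At an unadjusted p under 0.05 there were 0, 2 and 1 of 24, beside 4.45%, 11.1% and 7.39% of all gene sums. Fibrillarin (Fbl), the methyltransferase of C/D particles, held 10.4 ± 1.70, 12.1 ± 1.26 and 11.5 ± 1.75 FPKM with saline, on CFA3D and on CFA6D. Its partners Nop56 (20.97 ± 5.45, 22.4 ± 4.12 and 16.9 ± 3.33), Nop58 and Snu13 (18.9 ± 1.66, 20.5 ± 1.72 and 17.1 ± 0.467) had log2 fold changes of at most 0.40 in size. Snu13 was the 1 gene under p 0.05 between the days (-0.26, adjusted p = 0.641 in limma).

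In the H/ACA core, dyskerin (Dkc1), the pseudouridine synthase, held 5.85 ± 0.0973, 6.10 ± 0.686 and 5.76 ± 0.288 FPKM. Gar1 held 5.74 ± 0.485, 5.45 ± 0.647 and 6.40 ± 0.263, Nhp2 17.5 ± 2.45, 18.7 ± 1.91 and 16.9 ± 0.637, and Nop10 24.2 ± 1.01, 24.7 ± 2.14 and 23.4 ± 1.04 FPKM. The fold changes of these 4 were at most 0.23 in size on the log2 scale. Of the 82 host genes of the members, 62 in the mRNA table and 20 in the lncRNA table, 0 were called in any comparison in limma, beside 0.995%, 1.65% and 1.38% of all 4122 lncRNA gene sums. At an unadjusted p under 0.05 there were 0, 7 and 8 of the 62 (0%, 11.3% and 12.9%), beside the shares of all mRNA gene sums given above, none with an adjusted p under 0.05. The 20 gave 0, 0 and 0, beside 3.76%, 7.74% and 5.85% of all lncRNA gene sums.

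The libraries held sensory neuron markers at a summed 1795 to 2637 FPKM over 11 genes and Schwann cell markers at 2505 to 3312 over 5, and every gene of both lists was above 0 in every library. Erythroid markers summed to 1086 to 3790 FPKM over 3 genes, with the highest sum in saline replicate 2. Pituitary markers reached 10660 FPKM in saline replicate 3 and 1116 in CFA6D replicate 4, and skeletal muscle markers 135.8 in saline replicate 2. The part of these marker sets in the snoRNA values was not tested. In bulk RNA, fewer cells of a type and less RNA per cell cannot be told apart. The pile-up of low values placed the depth at 30.0 to 42.2 M read pairs per library, and the members together held about 4175 to 6416 pair equivalents, of which the median member held 3.71.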

How the data were processed

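The authors depleted rRNA from total RNA with Ribo-Zero, prepared strand-specific TruSeq libraries, trimmed reads with Trimmomatic 0.32 and mapped them to GRCm38. The submitters' processing notes name Bowtie 0.12.2 and mm8, and the paper names CLC Genomics Workbench for gene hit counts, while the program that wrote the FPKM values and the use of strand in counting are not given in the sources used here. The deposited values are FPKM per transcript, which are not counts, and 0 sample columns were left out. Names, positions and hosts came from GENCODE release 21, with transcripts joined by identifier.

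The fit used log2(FPKM + 0.1) and limma 3.58.1 (R 4.3.3), over transcripts (or gene sums of the mRNA or lncRNA table) with a mean of at least 0.1 FPKM, all 9 libraries together, with an empirical Bayes trend and Benjamini-Hochberg adjustment over the whole table. The script was tested on simulated data. With 3 against 3 the smallest two-sided exact permutation p is 0.1, so none is given. The worth of 1 read pair was read from the most common low value of FPKM times length (0.0237 to 0.0333 FPKM in 1 kb); values below 1 pair exist. Members and lists were chosen with earlier results of these data known. Named were the 10 highest C/D and 6 highest H/ACA members, every called member, up to 3 of each group, and core proteins. Alternatives were other pseudocounts, filters, scalings and samples. Python 3.11.15 with pandas 2.3.3, numpy 2.4.6, Biopython 1.88 and matplotlib 3.10.9 served the other steps.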

Additional observations from a re-analysis of the deposited data

Results flagged for a closer look

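For 4 C/D members CFA6D was called against CFA3D by limma, at an unadjusted p below 0.05 and the fold minimum, as 2.52% of all transcripts tested were. The log2 difference was -1.15 for Snord118, -1.48 for Snord92, -1.91 for Snord88a and -2.01 for Snord50b, and the adjusted p was 0.597, 0.869, 0.736 and 0.869. Snord118 held about 8.53 to 27.2 read pairs per library, Snord92 at most 1.60, Snord88a at most 2.83 and Snord50b at most 3.72. The difference of Snord50b turned to 0.30 with Snord50a added, and that of Snord88a was -0.90 with Snord88c added, short of a call. The calls of Snord118, Snord92 and Snord50b were each lost on leaving out 1 library, that of Snord118 without CFA6D replicate 4 (-0.991).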

How the results depend on the processing

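Counts of called snoRNAs moved with the settings. Of 5 calls on CFA3D, 5 on CFA6D and 4 between the days among 99 members, a pseudocount of 1 left 0, 0 and 0. A mean of at least 1 FPKM, which only 63 members reached, gave 1, 3 and 1. Dropping the fold minimum gave 8, 9 and 8 of 99 members, beside 4.44%, 6.37% and 5.44% of all transcripts tested. Approximate read pairs gave 3 on CFA3D and 1 on CFA6D, and testing without a filter on low values gave 2 on CFA6D. Leaving out 1 library at a time gave 3 to 6, 3 to 8 and 2 to 6 calls, with 3 on CFA3D without saline replicate 1 or 2, 3 on CFA6D without saline replicate 2 or CFA6D replicate 4, 8 without saline replicate 3, and 2 between the days without CFA3D replicate 1 or CFA6D replicate 4. Alternatives chosen after seeing the data were adding up copies of at least 85% identity (3 calls on CFA3D, 2 between the days) and leaving out members with an exon over them. The latter gave 1, 3 and 2 calls among 52 tested members in introns and 8 without a host. Of all transcripts tested, 2.27%, 2.84% and 2.52% were called. Snord50b reversed when added to Snord50a, to -0.42 on CFA3D and 0.30 between the days. For the snoRNP proteins, dropping the fold minimum gave 2 on CFA6D and 1 between the days in place of 0. The C/D minus H/ACA difference of medians on CFA6D was -0.04, and leaving out 1 library gave -0.24 (without saline replicate 2) to 0.0023. The other alternatives left these counts within 1.5 times and these differences within the spread between libraries. The cause of these moves was not tested. For snoRNA counts under settings other than no fold minimum and no members with an exon over them, the share of all transcripts called is not given. Settings that change the filter also change how many members were tested. Whether the members moved apart from all transcripts cannot be read from those counts.

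Saline and CFA3D share replicate numbers. Residuals of same-numbered libraries correlated by 0.0383, -0.0248 and 0.0586, and those of other numbers by -0.0812 to 0.0467. With 3 libraries per group these values cannot decide on a pairing, and the main fit used none. With a replicate block 4 members were called on CFA3D. CFA6D carries numbers 4 to 6 and cannot be paired. A mean under 1 pair equivalent was found for 10 of the 99 tested members, among them the called Snord88a (0.758), Snord90 (0.788) and Snord92 (0.658).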
